A study of Mus musculus with 6 samples.

Results

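The kappa light-chain V genes were followed in bone-marrow B cell progenitors of 3 groups of C57BL/6 mice. The young group was wild type and 12 weeks old, the aged group was wild type and 100 weeks old, and the IkB-deficient group had the genotype nfkbie-/-nfkbib-/-nfkbia+/- and was also 12 weeks old. Marrow cells pooled from 2 mice per group were sorted for B220 and against IgM, IgD, CD3e, CD8a, Gr-1, F4/80, CD11b and CD49b. Each pool was read on the 10x Genomics immune-profiling platform, once for V(D)J contigs and once for gene expression, so that the 2 mice of a group cannot be told apart. Kappa contigs, that is assembled transcripts of the IGK chain whose V gene is an IGKV gene, numbered 7573 of 82779 contigs in all: 3547 of 31404 in the young, 2408 of 22207 in the aged and 1618 of 29168 in the IkB-deficient library. They came from 99 IGKV genes in 20 families, out of 214 V genes of any chain, and all 99 matched RefSeq entries on chromosome 6 of mm10 (GRCm38.p6), between 67555636 and 70704177.

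A kappa gene is assembled by joining 1 of many V genes to 1 of a few functional J genes just upstream of the constant gene Igkc, by the RAG1 and RAG2 recombinase followed by end joining. A cell can recombine again, joining a V gene further upstream to a J gene further downstream, so the first join is replaced. The heavy chain is usually assembled first, in pro-B cells, and the kappa chain in small pre-B cells. Terminal deoxynucleotidyl transferase, encoded by Dntt and made mostly in pro-B cells, adds bases to a junction that neither gene segment holds.

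A contig was counted as productive when the authors' table marks it so, and all other contigs were kept apart and are called nonproductive here. The young, aged and IkB-deficient libraries held 1816, 1355 and 746 productive and 1731, 1053 and 872 nonproductive kappa contigs. Most of the nonproductive ones have no state in that table: 1550, 937 and 781 are marked None and have no CDR3, and 181, 116 and 91 are marked False. Of both kinds together, 1712, 1044 and 864 were marked full length, and 15, 7 and 4 had no J gene. Median depth per productive contig was 17, 15 and 25 UMIs (unique molecular identifiers, 1 per captured molecule). With 1 library per group there were no replicates, so no test was made. All intervals are exact 95% intervals that cover counting error only, and a gene is described as past 2-fold only where the 2 sets compared held at least 20 contigs on average.

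The junctions themselves are shown first, because the groups differed in them as well as in the V genes. The 5 rearrangements found in most cells among those present in all 3 libraries used IGKV1-135 or IGKV8-16. Each is the CDR3, the stretch across the V to J junction, 5′ to 3′. None holds a base matched by neither segment, as read from the V and J parts most common in these data.
IGKV1-135 to IGKJ1, join A: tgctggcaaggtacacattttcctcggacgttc
IGKV8-16 to IGKJ1: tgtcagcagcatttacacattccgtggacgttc
IGKV1-135 to IGKJ1, join B: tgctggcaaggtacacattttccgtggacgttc
IGKV1-135 to IGKJ1, join C: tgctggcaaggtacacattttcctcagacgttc
IGKV8-16 to IGKJ2: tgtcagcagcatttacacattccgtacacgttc
In the order young, aged and IkB-deficient, these were found in 33, 20 and 2 cells, in 28, 8 and 1, in 20, 12 and 2, in 13, 13 and 5, and in 18, 8 and 3. The same joins were thus found in separate pools of mice. Most of the cells were in the 2 wild-type libraries, which also held more productive kappa contigs, 1816 and 1355 against 746.

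For the same gene pair, IGKV1-135 to IGKJ1, young cells with a productive heavy chain (IGH) contig and IkB-deficient cells without one gave junction sets that overlapped in part. Capitals mark the bases matched neither by the V part nor by the J part of the CDR3 that is most common for those genes.
Most common V part of IGKV1-135: tgctggcaaggtacacattttcctca
Most common J part of IGKJ1: gtggacgttc
Young with IGH, 30 contigs, and IkB-deficient without IGH, 2 contigs: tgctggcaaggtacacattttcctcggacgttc
Young with IGH, 20 contigs, and IkB-deficient without IGH, 2 contigs: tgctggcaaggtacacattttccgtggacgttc
Young with IGH, 1 contig, and IkB-deficient without IGH, 1 contig: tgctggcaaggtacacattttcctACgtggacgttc
Young with IGH, 11 contigs, and IkB-deficient without IGH, 4 contigs: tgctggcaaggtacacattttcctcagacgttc
IkB-deficient without IGH, 1 contig: tgctggcaaggtacacattGGGGGCcgttc
IkB-deficient without IGH, 1 contig: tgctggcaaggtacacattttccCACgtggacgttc
IkB-deficient without IGH, 1 contig: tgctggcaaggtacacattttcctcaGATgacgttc
The 75 young contigs of this pair held 12 distinct CDR3s and the 23 IkB-deficient contigs held 17. Of these, 6 were in both sets, with 66 of the young and 11 of the IkB-deficient contigs, and at least 1 unmatched base was in 5 of the 75 and 13 of the 23. The sequences with capitals were picked for display after their letters were seen.

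The kappa-positive share of the cells and its link to the heavy chain differed between the genotypes. A productive kappa contig was found in 19.1% (18.2 to 19.9) of young barcodes, 17.6% (16.7 to 18.5) of aged and 7.93% (7.38 to 8.51) of IkB-deficient barcodes, of 8965, 7169 and 9078. In the wild-type libraries these were mostly cells with a productive IGH contig, 93.6% (92.4 to 94.7) in young and 86.7% (84.7 to 88.6) in aged, but in the IkB-deficient library only 14.7% (12.2 to 17.5) were. Productive IGH was itself rare in that library. It was found in 1117 of all 9078 IkB-deficient barcodes, against 7311 of 8965 in young and 4366 of 7169 in aged. Among barcodes without productive IGH, the kappa share differed less between libraries than among those with it. It was 6.59% (5.44 to 7.90), 5.96% (5.11 to 6.90) and 7.71% (7.14 to 8.32), and the aged and IkB-deficient intervals do not overlap. Of the productive kappa contigs in these cells, 15.5%, 36.6% and 6.44% had under 3 UMIs. Among barcodes with productive IGH the kappa share was 21.9%, 25.01% and 9.49%. The IkB-deficient kappa set therefore came mainly from a kind of cell that was a minority in the wild types, with 637 of its 746 productive contigs from cells without productive IGH, against 116 of 1816 in young and 175 of 1355 in aged.

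Most of the cells without productive IGH still had an IGH contig, one that was not productive. In the IkB-deficient library 508 of 614 such kappa-positive cells had an IGH contig with a J gene but no V gene, 77 had one with both, and 26 had none. In young these counts were 61, 32 and 13 of 109 cells, and in aged 113, 40 and 13 of 167. An IGH contig with a J gene and no V gene was thus the most common state in all 3, at 56.0% (46.1 to 65.5) of young, 67.7% (60 to 74.7) of aged and 82.7% (79.5 to 85.6) of IkB-deficient cells of this kind. Such a contig shows that no V to DJ join was read from it, not that the cell lacks one.

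In the gene-expression libraries, kappa-positive cells without productive IGH had more RNA of genes typical of pro-B cells than those with it. In aged cells this also held for genes of plasmacytoid dendritic and cycling cells. The aged set rests in part on low-count contigs. Without productive IGH, 36.6% (29.4 to 44.2) of its productive kappa contigs had under 3 UMIs, with a median of 6. With productive IGH these were 12.1% and 16. The part of such contigs in the aged values was not tested. Dntt stood at 95.3 CPM (counts per 1000000, over genes other than receptor genes) in young kappa-positive cells with productive IGH and at 424 in those without, 4.44-fold higher (3.72 to 5.28). The aged values were 187 and 767 CPM (4.11-fold, 3.68 to 4.59), and the IkB-deficient values 222 and 880 (3.97-fold, 3.28 to 4.83). Igll1 and Vpreb1, which encode the surrogate light chain that pairs with the heavy chain in pre-B cells, were higher too. Igll1 stood at 265 CPM with and 1507 without productive IGH in young (5.69-fold, 5.17 to 6.26), and the ratio was 4.76 among aged and 3.996 among IkB-deficient cells. Vpreb1 was 6.77-fold, 5.01-fold and 4.35-fold higher. Of the measured genes of the pro-B list, 4 of 5 were past 2-fold higher in young cells without productive IGH, 5 of 6 in aged and 4 of 6 in IkB-deficient cells, with median log2 ratios of 2.49, 1.88 and 1.84, where all measured genes had medians of 0.03, 0.02 and -0.02 and 3.47%, 4.68% and 4.4% of them were past 2-fold either way. High values were not particular to the kappa-positive cells. In young, aged and IkB-deficient cells with neither a kappa contig nor productive IGH, Dntt stood at 1329, 1313 and 978 CPM. There the pro-B list summed to 6583, 6075 and 7173 CPM. In kappa-positive cells without productive IGH it summed to 3819, 5151 and 8667.

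Rag1, a subunit of the recombinase, differed less between the same cells, at 154 and 213 CPM in young (1.38-fold, 1.09 to 1.73) and 92.0 and 144 in IkB-deficient cells (1.56-fold, 1.16 to 2.16). Of 11 measured genes of the small pre-B and light-chain recombination list, 0 were past 2-fold in young, 1 was higher and 3 lower among aged, and 0 were higher and 5 lower among IkB-deficient cells without productive IGH. Of 5, 6 and 6 measured end-joining genes, 1 was past 2-fold, among aged, and the median log2 ratios were 0.11, 0.16 and -0.12. Sets of IkB-deficient and wild-type cells with the same IGH status also differed, since the pro-B list summed to 2370 CPM in IkB-deficient cells with productive IGH and to 977 in young ones.

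Markers of other cells were present at differing levels. In kappa-positive cells the immature or mature B list summed to 2104 and 1358 CPM in young (with and without productive IGH), 5617 and 2065 in aged, and 12585 and 5682 in IkB-deficient cells, although IgM+ and IgD+ cells had been sorted out. Most of each sum was Cd74, at 8565 and 3854 CPM in IkB-deficient and 1369 and 762 in young cells. Ighd went the other way, at 14 and 24.9 against 39.9 and 64.2 CPM. The list was also high in IkB-deficient cells with neither a kappa contig nor productive IGH, at 5809 CPM against 1542.5 in such young cells. Genes of the plasmacytoid dendritic list moved with IGH status in a different way in each library. Without productive IGH, 4 of 6 measured genes were past 2-fold higher in aged cells, with a median log2 ratio of 1.34, 0 of 5 were past 2-fold in young cells (median 0.68), and 2 of 5 were past 2-fold lower in IkB-deficient cells (median -0.99). In aged cells Siglech, a receptor of plasmacytoid dendritic cells, went from 30.7 to 138 CPM (4.49-fold, 3.42 to 5.87), Bst2 was 3.27-fold and Cox6a2 2.84-fold higher, and Ly6d, which B cell progenitors also express, was at 0.717. Aged cells with neither a kappa contig nor productive IGH had more Siglech still, at 306.5 CPM. No gene of this list was at 0 in any of the 6 kappa-positive sets, and its sum in them ran from 2704 to 5400 CPM. Of 5 cycling genes, 3 were past 2-fold higher in aged cells without productive IGH (median log2 ratio 1.10), where the list summed to 990 CPM against 466 with it, and 0 were past 2-fold in young and IkB-deficient cells. The plasma cell list summed to between 928 and 3016 CPM in these 6 sets, the neutrophil list to between 0.308 and 268 and the NK or T list to between 5.13 and 23.1. The highest plasma cell sum was in young cells without productive IGH, with Jchain at 1422 CPM. That set held 1 productive kappa contig of at least 1000 UMIs, and the part of its cell in the sum was not tested. In the sets with and without IGH, 5 and 6 of 7 neutrophil genes were at 0 in young, 3 and 6 in aged, and 3 and 2 in IkB-deficient cells. The part of these cells in the V gene shares was not tested. Of the deleted genes, Nfkbie was low in the kappa-positive IkB-deficient cells with productive IGH, with 2 UMIs or 4 CPM, where the young value was 187 and the aged one 145. Nfkbib read 28 CPM there and 70.5 and 73.8 in the wild types. The heterozygous Nfkbia read 472 CPM there, 797 and 816 in the wild types.

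In young cells, usage was broad, and 2 genes at opposite ends of the locus led. IGKV1-135 (chromosome 6, 67609745 to 67610508), second from the distal end, held 129 productive contigs, 7.10% (5.97 to 8.38). IGKV8-16 (70386672 to 70387238), near the J genes, held 126, 6.94% (5.81 to 8.21). No other gene was above 2.59%, the share of IGKV8-27, and it took 20 genes to reach 50% of contigs. The most J-proximal gene, IGKV3-1 (70703578 to 70704177), held 2 contigs, and the most distal, IGKV2-137 (67555636 to 67556216), held 37.

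Usage in aged cells was closer to that in young cells than usage in IkB-deficient cells was. IGKV1-135 led in aged cells at 8.78% (7.33 to 10.4), followed by IGKV6-15 at 5.68%, a gene at 0.496% in young, and IGKV8-16 at 3.91%. There 17 genes made up 50% of contigs, and 6 of the 99 genes had no productive contig, against 3 in young. In IkB-deficient cells 11 genes made up 50%, and 17 genes had no productive contig. These counts come from 1816, 1355 and 746 contigs and were not matched for number. At equal IGH status they were closer: 21, 18 and 14 genes made up 50% with productive IGH (of 1700, 1180 and 109 contigs) and 10, 12 and 10 without it (of 116, 175 and 637). In the IkB-deficient set the leading genes were IGKV10-95 at 8.85% (6.91 to 11.1), IGKV2-109 at 7.78% (5.96 to 9.94), IGKV19-93 at 6.30% (4.67 to 8.29), IGKV1-135 at 5.50% (3.97 to 7.38) and IGKV1-110 at 5.23% (3.74 to 7.08). Over the 99 genes, productive shares correlated at a Spearman coefficient of 0.83 between young and aged and 0.61 between young and IkB-deficient, as a description over genes that share library and depth. The 78 genes found productive in all 3 libraries still included most members, so the groups differed more in amounts than in which genes appeared.

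**Figure D1:**
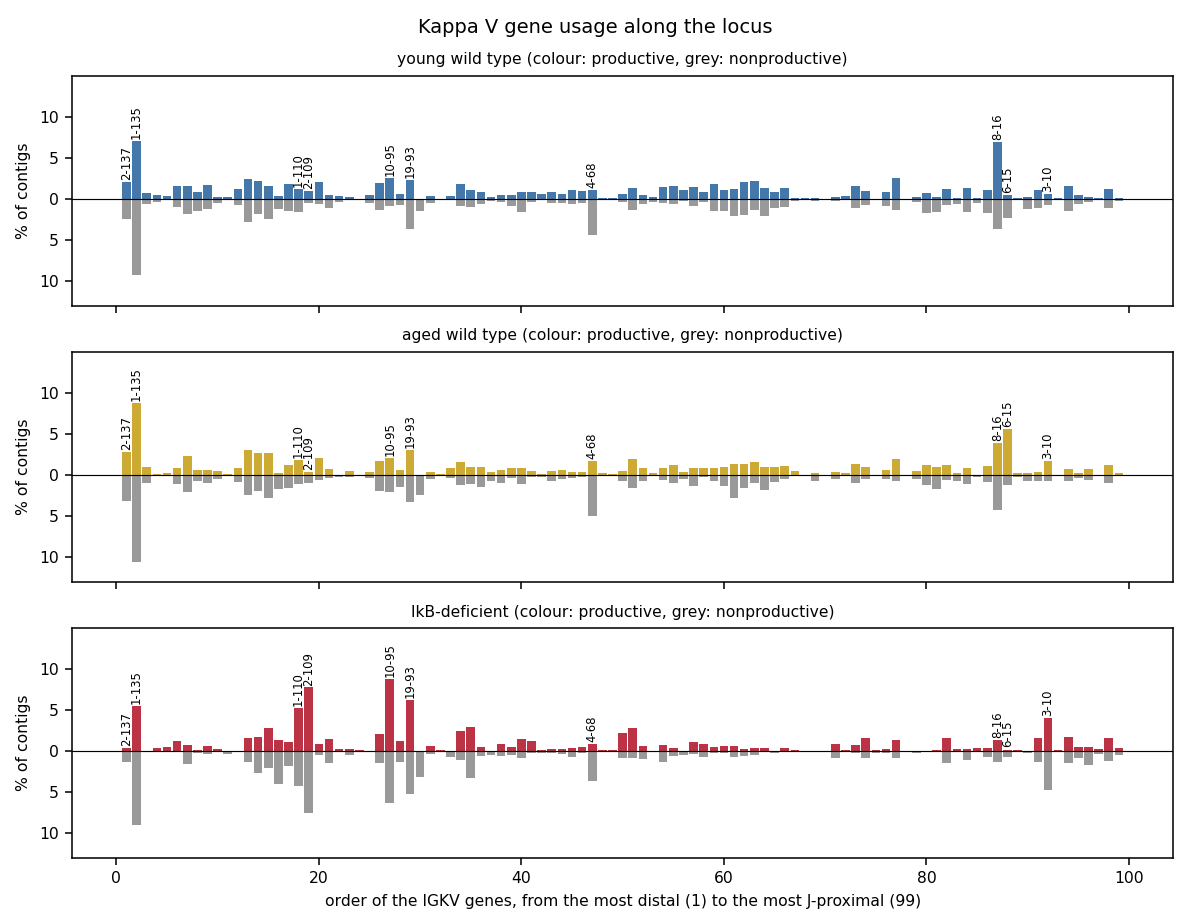
Share of kappa contigs by V gene, in percent, with the 99 genes in order along the locus from the most distal (1) to the most J-proximal (99). Coloured bars upward are productive contigs and grey bars downward nonproductive ones. Among productive contigs, IGKV1-135 and IGKV8-16 stand out in young, IGKV1-135 and IGKV6-15 in aged, and IGKV10-95 and IGKV2-109 in the IkB-deficient library.

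Between IkB-deficient and young cells, 11 of 20 measured genes were past 2-fold among productive contigs (55% of the measured genes), 7 higher (35%) and 4 lower (20%). For comparison, 63.2% of measured heavy-chain V genes (43 of 68) were past 2-fold in the same libraries, so the kappa genes were not set apart from them. IGKV2-109 (68302439 to 68303158) held 58 IkB-deficient, 17 young and 5 aged contigs and was 8.31-fold higher than in young (4.77 to 15.2). IGKV3-10 (70572633 to 70573230) held 30, 12 and 23 contigs and was 6.09-fold higher (3.03 to 13.1). IGKV1-110 (68270527 to 68271265), a neighbour of IGKV2-109, held 39, 23 and 25 and was 4.13-fold higher (2.41 to 7.24). Of the higher genes, IGKV1-110 and IGKV2-109 are next to each other among the genes found, IGKV10-95 and IGKV19-93 lie close together, and IGKV3-10 lies apart from them near the J genes.

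The other higher genes were IGKV10-95 (68680379 to 68680848, 66 against 46 contigs, 3.49-fold, 2.36 to 5.21), IGKV4-86 (2.82-fold, 1.46 to 5.51), IGKV19-93 (2.66-fold, 1.72 to 4.12) and IGKV4-59 (2.05-fold, 1.09 to 3.81, but 1.88 with 1 contig per cell). On the lower side, IGKV8-16 fell from a leading place to 10 of 746 contigs, 1.34%, at 0.193 of the young share (0.0904 to 0.367). IGKV12-44 (69814631 to 69815100) and IGKV2-137 each held 3 IkB-deficient contigs, against 39 and 37 in young, with ratios of 0.187 (0.0370 to 0.589) and 0.197 (0.0389 to 0.623). IGKV16-104 was at 0.448, with an interval of 0.169 to 1.02 that includes 1, and at 0.742 over distinct rearrangements. IGKV1-135, among the leaders in every library, was at 0.774 (0.531 to 1.11) and so was not separated from its young share.

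The nonproductive contigs gave a count of V genes from other contigs than the productive ones. Whether those marked None encode a light chain is not known from the table. Of 19 measured genes, 11 (57.9%) were past 2-fold between IkB-deficient and young nonproductive contigs, 7 higher (36.8%) and 4 lower (21.1%). IGKV2-109 held 66 against 9 contigs, 7.57% against 0.520%, 14.6-fold higher (7.22 to 33.2). IGKV10-95 was 7.28-fold higher (4.05 to 13.9), IGKV3-10 6.26-fold (3.29 to 12.7), IGKV2-112 3.31-fold (1.87 to 5.98) and IGKV4-86 3.27-fold (1.73 to 6.37). Of the 7 genes higher among productive contigs, 6 could be measured among nonproductive ones; all 6 were on the same side and 5 were past 2-fold. Of the 4 lower genes, 2 could be measured and both were lower, with IGKV8-16 at 0.341 (0.162 to 0.652) and IGKV2-137 at 0.520 (0.241 to 1.03). Contigs marked False were too few to measure these genes: in the IkB-deficient and young libraries IGKV2-109 held 2 of 91 and 1 of 181, IGKV10-95 held 0 and 1, IGKV3-10 held 4 and 0, and IGKV8-16 held 0 and 8.

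**Figure D2:**
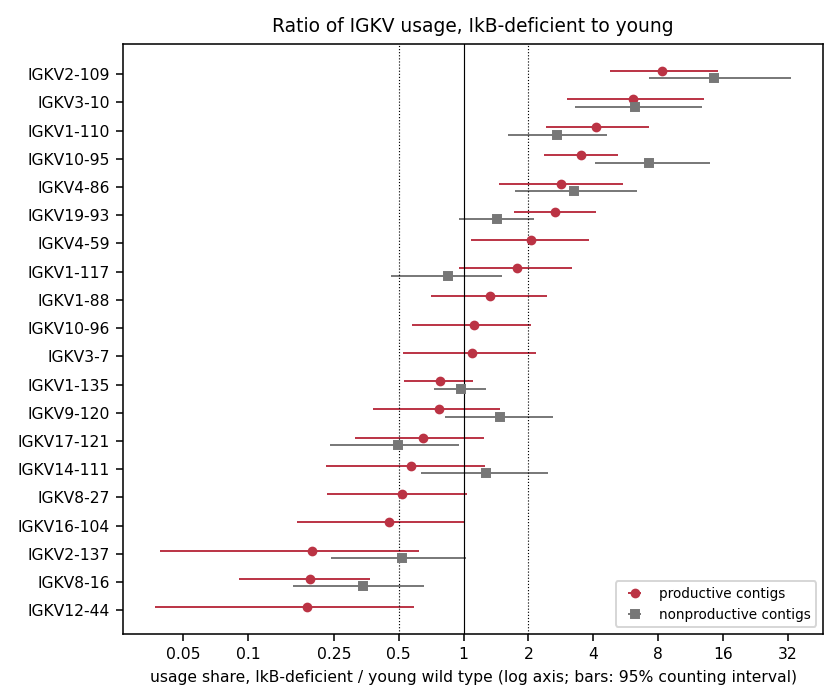
Ratio of a gene's usage share in IkB-deficient to that in young contigs, on a log axis, for the 20 genes measured among productive contigs; dots are productive and squares nonproductive contigs, bars are 95% counting intervals, and dotted lines mark 2-fold. IGKV2-109 is highest in both, at 8.31 and 14.6, and IGKV8-16 is low in both, at 0.193 and 0.341.

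By family, the IkB-deficient set was richer in IGKV2, IGKV10, IGKV19 and IGKV3 and poorer in IGKV5, IGKV12, IGKV6 and IGKV8. IGKV2 made up 9.52% of productive contigs against 3.304% in young (2.88-fold, 2.01 to 4.13), IGKV10 12.2% against 5.12% (2.38-fold, 1.76 to 3.22), and IGKV3 10.9% against 5.62% (1.93-fold, 1.43 to 2.61). The family IGKV12 was at 0.226 of its young share (0.1003 to 0.447), IGKV5 at 0.296 (0.153 to 0.528), IGKV6 at 0.481 (0.256 to 0.843), IGKV8 at 0.515 (0.381 to 0.686) and IGKV16, a single gene, at 0.448. IGKV4, with 26 genes the largest family, was at 0.978 of its young share (0.804 to 1.18) and IGKV1 at 1.15 (0.922 to 1.43), so both were near it. Ratios for IGKV9, IGKV14 and IGKV17 were 0.740, 0.589 and 0.600, with intervals that include 1. IGKV7, IGKV11, IGKV13, IGKV15, IGKV18 and IGKV20 held from 0 to 31 productive contigs per library. These family shares are over all cells and were not the same at equal IGH status. Among cells with productive IGH, IGKV6 held 7.34% of IkB-deficient and 4.29% of young contigs (1.71-fold, 0.711 to 3.55), IGKV12 4.59% and 5.41%, IGKV10 5.51% and 5.18%, and IGKV2 4.59% and 3.18%, and the intervals of all 4 ratios include 1. Among cells without it, IGKV10 was 3.096-fold (1.28 to 9.78), IGKV3 2.66-fold (1.09 to 8.43) and IGKV2 2.003-fold higher (0.873 to 5.66), while IGKV12 held 4 of 637 IkB-deficient and 5 of 116 young contigs. Over all cells, nonproductive contigs gave the same sides for the families with the widest differences, with IGKV2 at 3.09, IGKV10 at 3.08, IGKV5 at 0.157 and IGKV12 at 0.406.

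Because the IkB-deficient set came mostly from cells without productive IGH, the genes were also compared at equal IGH status. Among cells with productive IGH the IkB-deficient set held 109 contigs, and 3 of 7 measured genes (42.9%) were past 2-fold, 1 higher (14.3%) and 2 lower (28.6%), each with an interval that includes 1. IGKV8-16 held 7 of these 109, 6.42% (2.62 to 12.8), against 6.94% in young cells with productive IGH. Among cells without productive IGH it held 3 of 637 in the IkB-deficient library, 0.471% (0.0972 to 1.37), against 8 of 116 in young, 6.90% (3.02 to 13.1). The low IGKV8-16 share was thus seen in the cells without productive IGH.

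IGKV2-109 was high in the same cells. It held 53 of 637 contigs there against 1 of 116 in young, 8.32% against 0.862%, a ratio of 9.65 (1.66 to 388) whose width comes from the single young contig. Among cells with productive IGH it held 5 of 109 in the IkB-deficient and 16 of 1700 in the young library, 4.59% (1.51 to 10.4) against 0.941% (0.539 to 1.52). IGKV3-10 held 30 of 637 IkB-deficient contigs without productive IGH and 0 of 109 with it, a count that allows a share of up to 2.75%. For IGKV1-110 the young cells without productive IGH were already high, at 6 of 116, 5.17%, and the IkB-deficient share of 5.81% was 1.12 times that (0.470 to 3.26). In all, 2 of 5 measured genes (40%) were past 2-fold without productive IGH, IGKV2-109 and IGKV10-95 (2.26-fold, 0.917 to 7.20).

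Aged and young cells differed in few genes. Of 26 measured genes, 3 (11.5%) were past 2-fold between aged and young productive contigs, 1 higher (3.85%) and 2 lower (7.69%), and 0 of 20 (0%) between nonproductive ones; among heavy-chain V genes 1 of 73 (1.37%) was. IGKV11-125 held 9 aged and 31 young contigs, at 0.389 (0.163 to 0.837), and IGKV4-50 held 11 and 34, at 0.434 (0.198 to 0.876), or 0.605 over distinct rearrangements. IGKV8-16 was at 0.564 (0.401 to 0.783), with 53 and 126 contigs, while IGKV1-117 was 1.71-fold (1.02 to 2.88) and IGKV4-68 1.54-fold (0.810 to 2.96) higher. At the family level IGKV8 was at 0.744 (0.606 to 0.910), IGKV4 at 0.820 (0.693 to 0.969) and IGKV6 at 2.49 (1.87 to 3.33).

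Much of the aged IGKV6 excess was 1 repeated rearrangement. IGKV6-15 (70406469 to 70406992) held 77 aged and 9 young contigs, 11.5-fold higher (5.74 to 26.02), but 58 of the 77 carried a single join to IGKJ2 whose CDR3 is far shorter than usual, with 15 nucleotides against the usual 33. It is shown because it makes up most of the aged value, with the V and J parts most common for these genes. Its first 15 bases differ from that V part, so it was left out of the count of unmatched bases and no bases are marked in it. The J gene is the one given in the authors' table. The end of the CDR3, ctcacgttc, is also the end of the most common IGKJ5 part, gctcacgttc. Of the IGKJ2 part it matches only the last cacgttc, so the IGKJ2 label is uncertain.
Expanded aged IGKV6-15 CDR3: tgtcctctcacgttc
Most common V part of IGKV6-15: tgtcagcaatataacagctatcctc
Most common J part of IGKJ2: gtacacgttc
Without that join IGKV6-15 held 19 of 1297 aged contigs, 1.47% against 0.496% in young, and was still 2.96-fold higher (1.27 to 7.42). The family IGKV6 was then at 6.40% against 4.19%, 1.53-fold higher (1.11 to 2.12). No young or IkB-deficient contig carried the join. Of its 58 cells, 50 had a productive IGH contig and 24 shared the heavy chain IGHV1-64 to IGHJ1, 21 of them with the switched constant gene IGHG2C and 3 with IGHM, and the next heavy chain was found in 3 cells. The other cells were thus not shown to be of the same clone by their heavy chain.

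These 58 cells fell into 2 kinds by depth. In 38 cells the contig had at least 3 UMIs; all 38 had a productive IGH contig, 22 of them the shared heavy chain. There the gene-expression library gave a median of 56.5 IGKV6-15 UMIs, IGKV6-15 was the leading Igkv gene in 37, 32 had Ighg2c UMIs, and the immature or mature B list summed to 30120 CPM against 1128 for the pro-B list. In the other 20 the contig had 1 or 2 UMIs; 12 had a productive IGH contig, 2 of them the shared heavy chain. There the median was 1 IGKV6-15 UMI, 1 cell had Ighg2c, the pro-B list summed to 5914 CPM and the immature or mature B list to 1189. Over other aged cells with productive kappa, 48 of 1175 had any IGKV6-15 UMI. Counting contigs of at least 3 UMIs removes the second kind, and their part in the IGKV6-15 share was not tested.

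Along the locus, cells without productive IGH used V genes further from the J genes. The span from the most distal to the most J-proximal gene was divided into 4 stretches of equal length, with 19, 22, 25 and 33 of the genes, and the first and second make up the distal side. In young productive contigs the distal side held 46.6% (44.2 to 48.99) in cells with productive IGH and 62.1% (52.6 to 70.9) in cells without, a ratio of 0.751 (0.589 to 0.969). In aged cells it held 49.4% and 60.6% (0.816, 0.662 to 1.01), and in IkB-deficient cells 45.9% and 67.0% (0.684, 0.4999 to 0.919). The 3 libraries therefore had the same direction, with an interval below 1 in young and IkB-deficient cells.

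Nonproductive contigs went the same way in the wild types, with 46.4% and 76.7% in young (0.606, 0.487 to 0.761) and 51.5% and 68.6% in aged cells (0.751, 0.607 to 0.936). In IkB-deficient nonproductive contigs the distal side held 60.7% with and 65.8% without productive IGH, and the ratio of 0.923 (0.727 to 1.16) was not separated from 1. At equal IGH status the ratios of IkB-deficient to young productive shares had intervals that include 1: 45.9% and 46.6% with it (0.985, 0.725 to 1.31), 67.0% and 62.1% without it (1.08, 0.840 to 1.41). Nonproductive contigs differed at equal status, with 60.7% (52.2 to 68.7) in IkB-deficient against 46.4% (43.97 to 48.9) in young cells with productive IGH, 1.31-fold higher (1.04 to 1.63), and 65.8% against 76.7% without it (0.858, 0.685 to 1.08). Over all productive contigs, the distal side held 47.6% of young contigs, 50.9% of aged ones and 63.9% of IkB-deficient ones (1.34-fold young, 1.20 to 1.51). Within it the second stretch, which holds IGKV10-95 and IGKV19-93, was at 32.4% against 18.6% in young (1.74-fold, 1.47 to 2.06), and the first was 1.09-fold (0.929 to 1.27). When IGH status was read from any IGH contig, productive or not, only 13, 14 and 27 productive contigs were left in cells without one, and the aged ratio was 1.43 (0.609 to 4.41).

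**Figure D3:**
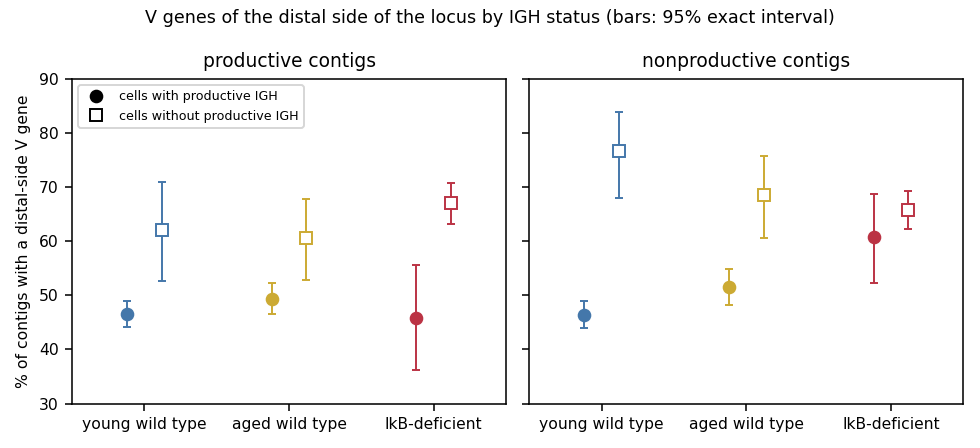
Percent of kappa contigs whose V gene lies on the distal side of the locus, by library and by IGH status; filled circles are cells with and open squares cells without a productive IGH contig, with exact 95% intervals. Productive contigs run from 45.9 to 49.4 with productive IGH and from 60.6 to 67.0 without it; IkB-deficient nonproductive contigs stand at 60.7 and 65.8.

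Single genes followed this pattern in part. IGKV1-135 was lower in cells with than in cells without productive IGH in 5 of the 6 comparisons, at 6.82% and 11.2% of young, 8.14% and 13.1% of aged and 3.67% and 5.81% of IkB-deficient productive contigs, although each of these 3 intervals includes 1. Among nonproductive contigs it was at 0.467 in young (0.297 to 0.770) and 0.498 in aged cells (0.323 to 0.788), and at 1.10 (0.568 to 1.98) in IkB-deficient ones. In young nonproductive contigs 4 of 7 measured genes (57.1%) were past 2-fold, with the distal IGKV2-137 at 0.317 (0.144 to 0.792) and IGKV19-93 at 0.323 (0.170 to 0.664) lower, and the J-proximal IGKV8-16 at 2.31 (0.613 to 19.5). In aged nonproductive contigs 1 of 3 (33.3%), IGKV1-135, was past 2-fold. Among productive contigs 0 of 7 in young (0%), 0 of 5 in aged (0%) and 1 of 4 in IkB-deficient cells (25%) were, the last being IGKV10-95 at 0.377 (0.0996 to 1.02).

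The J gene joined to these V genes differed too. Functional J genes run from IGKJ1 (70722562 to 70722599), nearest to the V genes, to IGKJ5 (70723886 to 70723923), nearest to the constant gene. IGKJ5 was used by 28.9% (26.8 to 31.0) of young, 26.9% (24.6 to 29.4) of aged and 18.9% (16.2 to 21.9) of IkB-deficient productive contigs, and IGKJ1 by 30.2%, 29.8% and 37.4% (33.9 to 41.0). Among nonproductive contigs with a J gene, IGKJ5 took 35.0%, 37.4% and 17.7% (15.3 to 20.5). The IkB-deficient library thus used the last J gene least in both. IGKJ3, which is known not to be functional, was in 0 productive contigs of any library (up to 0.165%, 0.221% and 0.402%) and in 4, 1 and 4 nonproductive ones.

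By position of the V gene, IGKJ5 was least used with the first 2 stretches: from distal to J-proximal its share of young productive contigs was 22.6%, 25.4%, 35.8% and 31.1%, of aged ones 23.5%, 22.1%, 37.6% and 26.1%, and of IkB-deficient ones 15.7%, 16.9%, 30.1% and 18.6%. The last aged stretch held 379 contigs, 99 with IGKJ5 and 143 with IGKJ2. The 58 contigs of the expanded IGKV6-15 join are among these 143, so they lower the aged IGKJ5 share there. The stretch shares were not recomputed without them. Each stretch held a lower IGKJ5 share in the IkB-deficient than in the young library. At equal IGH status IGKJ5 stood at 28.7% and 22.9% (15.4 to 31.97) of young and IkB-deficient contigs with productive IGH and at 31.9% (23.6 to 41.2) and 18.2% (15.3 to 21.4) without it. In 281 young, 194 aged and 81 IkB-deficient cells with exactly 1 productive and 1 nonproductive kappa contig, the nonproductive join used the J gene further downstream in 43.8% (37.9 to 49.8), 46.4% (39.2 to 53.7) and 39.5% (28.8 to 51.0), and the productive one did in 28.8%, 28.4% and 29.6%.

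**Figure D4:**
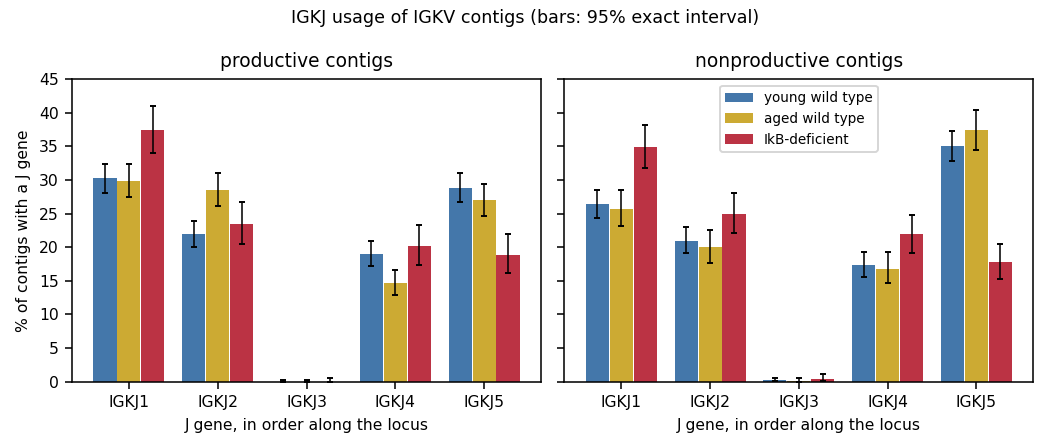
Percent of kappa contigs with each J gene, by library, for productive and nonproductive contigs; bars show exact 95% intervals and start at 0. IGKJ5 is lowest in the IkB-deficient library, at 18.9 and 17.7.

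Some V genes were found mostly in one kind of contig. In young cells 6 of 36 measured genes (16.7%) were past 2-fold between nonproductive and productive contigs, 3 each way (8.33%). IGKV4-68 (69304834 to 69305363) held 76 nonproductive and 20 productive contigs in young, 53 and 23 in aged and 32 and 7 in IkB-deficient cells, with ratios of 3.99 (2.41 to 6.89) in young and 2.97 (1.79 to 5.07) in aged. IGKV4-92 was nearly all nonproductive, with 26, 25 and 27 nonproductive and 1, 0 and 0 productive contigs. IGKV1-135 was above 1 in all 3 libraries, at 1.30 (1.03 to 1.65), 1.21 (0.927 to 1.58) and 1.63 (1.10 to 2.44).

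On the productive side in young cells stood IGKV16-104, at a nonproductive to productive ratio of 0.276 (0.123 to 0.565), IGKV10-95 at 0.342 (0.177 to 0.624) and IGKV1-88 at 0.445 (0.220 to 0.855); with nonproductive contigs that have a CDR3, IGKV1-88 was at 0.912. IGKV6-15 was at 4.55 in young (2.17 to 10.7) and, with the expanded rearrangement, at 0.217 in aged cells; over distinct rearrangements these were 0.863 and 0.531. In aged cells 2 of 14 genes (14.3%) and in IkB-deficient cells 1 of 8 (12.5%) were past 2-fold, the last being IGKV2-112 at 2.99 (1.45 to 6.78). RefSeq lists IGKV14-126 as a pseudogene, yet 16 young, 9 aged and 1 IkB-deficient productive contigs were assigned to it. V genes of 1 family can be near-identical, so the assignment within large families such as IGKV4 is less certain than between families.

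CDR3 lengths were more varied in the IkB-deficient library over all cells. A CDR3 of another length than 33 nucleotides was found in 23.6% (21.7 to 25.7) of young, 24.8% (22.5 to 27.2) of aged and 48.7% (45.02 to 52.3) of IkB-deficient productive contigs; without the expanded rearrangement the aged share was 21.4%. Counting each distinct rearrangement once, the shares were 36.6%, 31.0% and 52.5%. Length 36 made up 7.71%, 7.23% and 27.1%. With productive IGH, lengths other than 33 were found in 23.5% (21.5 to 25.6) of young and 30.3% (21.8 to 39.8) of IkB-deficient contigs, with overlapping intervals. Without it they were found in 25.9% (18.2 to 34.8) and 51.8% (47.9 to 55.8). Some genes have another usual length, and all 45 IGKV8-27 and all 22 IGKV8-21 contigs of young cells with productive IGH differed from 33, so V gene usage moves with these shares; its part was not tested.

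Bases matched by neither segment were counted against the V and J parts most common in these data, in contigs whose first 15 CDR3 bases match the V gene. At least 2 such bases were found in 5.62% (4.56 to 6.84) of young contigs with and 10.9% (5.77 to 18.3) without productive IGH. The aged values were 6.63% (5.21 to 8.29) and 20.9% (14.8 to 28.2), and the IkB-deficient values 24.5% (16.7 to 33.8) and 43.6% (39.7 to 47.6). Within each library the point value was higher without productive IGH, with intervals that do not overlap in aged and IkB-deficient cells, and at equal IGH status it was highest in the IkB-deficient library. Dntt moved with it, from 95.3 CPM in young cells with productive IGH to 880 in IkB-deficient cells without, but not in order throughout: it was 767 in aged cells without and 222 in IkB-deficient cells with productive IGH. The part of Dntt was not tested. Among contigs of at least 3 and under 1000 UMIs the values were 5.28% and 12.0%, 6.48% and 23.2%, and 26.5% and 44.0%.

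Within single V genes, shares were compared with genotype and IGH status changing together. In IkB-deficient cells without productive IGH against young cells with it, the shares with at least 2 unmatched bases were 32.4% (18.0 to 49.8) and 6.90% (3.02 to 13.1) for IGKV1-135, 47.5% (34.6 to 60.7) and 4.88% (0.596 to 16.5) for IGKV10-95, and 51.2% (35.1 to 67.1) and 2.63% (0.0666 to 13.8) for IGKV19-93. IGKV1-110 had 23 of 37 and 0 of 16 and IGKV3-10 had 14 of 30 and 0 of 11. For IGKV1-135 without productive IGH, the share was 15.4% (1.92 to 45.5) of 13 young and 21.7% (7.46 to 43.7) of 23 aged contigs. Both intervals overlap the IkB-deficient one. The part of IGH status in these gaps was not tested. An exception among young cells was IGKV4-53, at 41.7% of 24 contigs with productive IGH; the V part used is the most common one in these data and not a germline sequence.

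**Figure D5:**
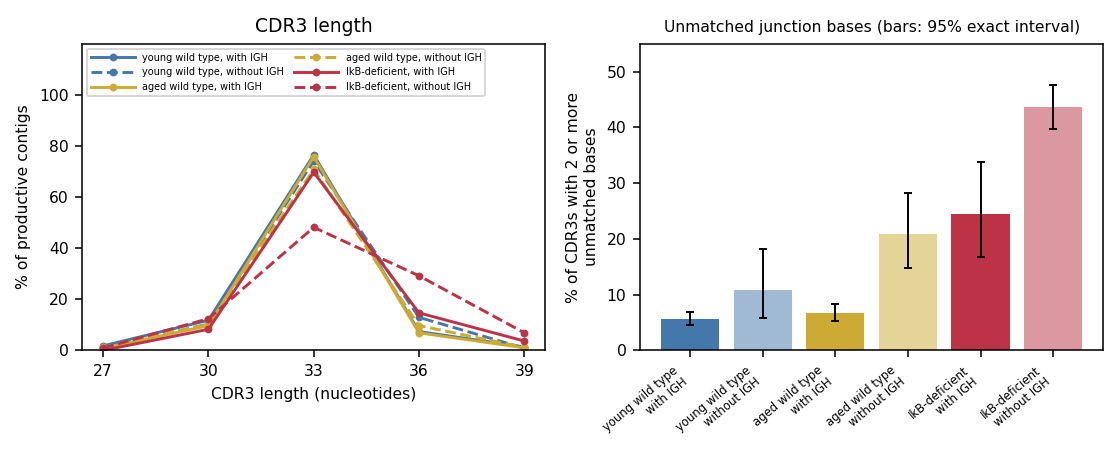
Left, percent of productive contigs at each CDR3 length from 27 to 39 nucleotides; right, percent of CDR3s with 2 or more bases matched by neither the V nor the J part, with exact 95% intervals. IkB-deficient cells without productive IGH have the lowest share at 33 nucleotides, 48.2, and the highest share with unmatched bases, 43.6.

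Repeated joins were rarer in the IkB-deficient library over all cells and in its cells without productive IGH. Among pairs of contigs that shared V and J gene, 32.9% in young, 27.6% in aged cells without the expanded rearrangement and 5.34% in IkB-deficient cells had the identical CDR3. With productive IGH the shares were 34.3% of 10058 young pairs and 31.4% of only 35 IkB-deficient pairs (11 pairs), and without it 16.4% of 73 and 4.54% of 2598. Pairs share contigs, so no interval is given. The libraries held 1673 distinct productive rearrangements, of which 112 were found in all 3, and 111 of these 112 had no unmatched base. The V and J parts used for matching were read from these same rearrangements, so the match of shared joins is in part built in. Of the distinct young rearrangements, 39.2% were also in aged and 18.9% in IkB-deficient cells; of the aged ones, 47.4% were in young, and of the IkB-deficient ones, 25.2% were in young. Of the barcodes, 226 were found in more than 1 library, and 0 of these had the same productive rearrangement there.

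The gene-expression library of the same cells gave a second reading of the V gene. In cells with exactly 1 productive kappa contig and any Igkv UMI, the Igkv gene with most UMIs was the gene of the contig in 86.2% (84.3 to 87.8) of young, 87.4% (85.3 to 89.3) of aged and 92.3% (90.04 to 94.2) of IkB-deficient cells. Among IkB-deficient cells without productive IGH it was 93% (90.6 to 94.9). Both libraries come from the same captured RNA, so they check the assignment and not the cells. Among barcodes with no kappa contig, productive or not, and no productive IGH contig, 16.7%, 14.7% and 14.7% had an Igkv UMI. Their median depths were 6461, 6946.5 and 7142 UMIs. Of kappa-positive cells without productive IGH, 97.2%, 98.7% and 99.3% had one, at 2813, 2771 and 4980 UMIs. Igkc, the constant gene, stood at 94.9, 45.8 and 909 CPM in the first set.

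Counting cells by their leading Igkv gene (at least 3 UMIs) gave 3040 young, 1900 aged and 1571 IkB-deficient cells, of which 1581, 859 and 910 had no productive kappa contig. IGKV2-109 led in 131 IkB-deficient and 25 young cells, 10.1-fold higher (6.57 to 16.2). IGKV3-10 was 6.45-fold higher (3.91 to 11.1), IGKV10-95 4.82-fold (3.43 to 6.86), IGKV1-110 2.92-fold (1.98 to 4.36), IGKV4-86 2.48-fold (1.52 to 4.07) and IGKV19-93 1.80-fold (1.33 to 2.42). IGKV4-59, at 1.27 (0.737 to 2.17), was not separated from 1 here. IGKV12-44 was at 0.194 and IGKV8-16 at 0.268, whereas IGKV2-137, at 0.667 (0.290 to 1.41), was not separated from 1.

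In the 452 young and 223 IkB-deficient cells of that count with no kappa contig of either kind, IGKV10-95 led in 7 and 20 (5.79-fold, 2.35 to 16.2) and IGKV2-109 in 6 and 16 (5.41-fold, 2.01 to 16.9). These cells gave no contig to the usage shares above. Among the young ones the most common leading gene was IGKV9-124, in 75 cells, against 6 IkB-deficient cells (0.162-fold, 0.0577 to 0.370). It held 5 young and 2 IkB-deficient productive contigs, so for this gene the 2 readings did not match. A contig needs enough kappa RNA to be assembled, so more cells with a V gene and more RNA per cell cannot be told apart from contig counts alone. Medians per productive contig were 32.5 UMIs for IGKV2-109 in IkB-deficient and 24 in young cells, 23 and 8.5 for IGKV10-95 and 29.5 and 24 for IGKV8-16. Contigs of at least 1000 UMIs numbered 8, 6 and 0, and their cells had plasma cell list sums of 81951 CPM in young and 109683 in aged.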

How the data were processed

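Per the submitters' processing notes the authors used Cell Ranger with the mm10 build; the matrix headers name software version 3.0.1. The deposited matrices hold raw counts of UMIs per gene and cell, and the deposited contig tables hold counts of reads and UMIs per contig, with V, J and CDR3 calls that were used as given. Contigs of chain IGK with an IGKV gene were counted by library, productive state and presence of a productive IGH contig in the barcode; 1 IGKV contig of mixed chain was left out. Doublets were not removed. Shares have exact Clopper-Pearson intervals (95%), ratios exact conditional binomial intervals (Python 3.11.15, SciPy 1.17.1), checked on simulated data. Where a count was 0, 3 counts set the limit. Expression was summed per set of cells and scaled to CPM, leaving out 651 receptor genes; genes of a mean of at least 20 CPM counted as measured, and log2 ratios had a pseudocount of 5 CPM. The genes named are the 10 of highest productive and 5 of highest nonproductive usage, the 3 highest and 3 lowest ratios of each comparison, both ends of the locus and all families; others named in the text (such as IGKV4-92, IGKV14-126, IGKV4-53 and IGKV8-21) and the measure of unmatched bases were chosen after their values were seen. Members and lists were chosen with earlier results of these data known.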

Additional observations from a re-analysis of the deposited data

How the results depend on the processing

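No paired analysis was possible because each group is 1 library, and for the same reason no library could be left out. Of 264 values recomputed for the main comparisons, 206 stayed within their interval or within 1.5 times their count. Of 24 named ratios past 2-fold, 241 of 244 recomputed values kept their side of 1 and 228 stayed past 2-fold. The 3 that changed side were the young nonproductive to productive ratios of IGKV1-88 (1.39) and IGKV6-15 (0.863) with distinct rearrangements, and IGKV10-95 by IGH status in IkB-deficient cells (1.20) with any IGH contig. In the IkB-deficient to young comparison IGKV16-104 (0.742, distinct rearrangements) and IGKV4-59 (1.88 to 1.99) dropped under 2-fold.

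Counts past 2-fold are given of the genes that could be measured. Aged to young gave 0 of 2 genes with distinct rearrangements, 1 of 20 with at least 3 UMIs, 1 of 20 without barcodes of several chains, 1 of 23 without contigs of another V start, and 10 of 59 and 1 of 5 at minimums of 10 and 40 contigs. IkB-deficient to young gave 4 of 5, 7 of 14, 23 of 49 and 3 of 4 for distinct rearrangements, at least 3 UMIs and the same minimums; its nonproductive count was 0 of 0 with distinct rearrangements and 0 of 1 with a CDR3 or marked False. By IGH status, young productive counts were 1 of 6 (1 contig per cell), 1 of 3 (at least 3 UMIs), 6 of 7 (any IGH contig), 1 of 7 (IGH of at least 3 UMIs) and 8 of 35 (minimum 10); aged ones 1 of 1 (distinct), 3 of 3 (at least 3 UMIs), 4 of 5 (any IGH contig) and 1 of 19 (minimum 10); IkB-deficient ones 3 of 4 (IGH of at least 3 UMIs), 5 of 9 and 0 of 0 (minimums 10 and 40). Nonproductive to productive counts with distinct rearrangements were 0 of 0 in young, 0 of 0 in aged and 3 of 3 in IkB-deficient cells; with a CDR3 or marked False they were 5 of 8 in aged and 5 of 5 in IkB-deficient cells, and in the latter 0 of 7 with 1 contig per cell or at least 3 UMIs.

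Distal-side shares were 44.6% in young with distinct rearrangements and 54.2% in aged without contigs of another V start. The ratio by IGH status was 0.782 in young nonproductive contigs with distinct rearrangements, and with any IGH contig 1.43 in aged productive and 1.26 in aged nonproductive contigs. IGKJ5 shares with distinct rearrangements were 31.6% in young and 29.4% in aged. Kappa-positive barcodes were 16.6%, 14.8% and 7.36% with at least 3 UMIs and 17.6%, 15.3% and 7.35% of gene-expression cells. CDR3s not of 33 nucleotides were 36.6%, 31.0% and 52.5% of distinct rearrangements, so that the gap between young and IkB-deficient cells was smaller; in aged cells they were 21.4% without the expanded rearrangement, 21.8% also without rearrangements of at least 1000 UMIs, and 21.1% without contigs of another V start. With at least 3 unmatched bases the shares were 3.62% and 5.46% in young, 5.04% and 11.8% in aged and 30.8% in IkB-deficient cells without productive IGH. Settings on expanded rearrangements, V starts and unmatched bases were chosen after seeing the data. The cause of each shift was not tested.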
